A study of Mus musculus with 9 samples.

Results

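The genes described here encode KMT2A (MLL), the proteins that hold it or its fusions on chromatin, and the partners through which MLL fusions reach the DOT1L methyltransferase and the transcription elongation machinery. The members are Kmt2a, Men1, Psip1, Mllt3, Mllt1, Mllt10, Dot1l, Aff1, Aff4 and Ell. They were listed by symbol, with earlier results of these data known. They are 10 of the 38926 gene symbols in the count tables, and 10 of 10 passed the filter on low counts, among 12663 genes tested. The cells were a murine acute myeloid leukaemia line driven by the MLL-AF9 fusion, passaged through mice up to a tertiary transplant, and all groups carry the fusion. The groups were cells with hairpin shRNA-1 against Syncrip (3 libraries), cells with hairpin shRNA-2 against Syncrip (3 libraries) and cells with a control hairpin (3 libraries), all taken at day 4 after transduction. SYNCRIP belongs to the hnRNP proteins, which bind RNA, and the series asks what its loss does to the stem cell programme of this leukaemia. The labels call the control a scramble and the design text a hairpin against luciferase, so which of them it was remains unknown here. Each culture was transduced and processed on its own, so p-values measure the spread between cultures of 1 leukaemia line.

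In MLL-rearranged leukaemia the first part of KMT2A, which binds DNA and the menin-LEDGF pair, is joined to a partner such as AF9. AF9 and its close relative ENL bind acylated histones through a YEATS domain and, through their end region, either DOT1L with AF10 or the AFF scaffolds of the super elongation complex. DOT1L methylates histone H3 in gene bodies, and the super elongation complex brings the kinase P-TEFb and ELL factors to paused RNA polymerase II. MLL-AF9 leukaemias are known to need menin, LEDGF, DOT1L and the unfused MLL partners for their HOXA and MEIS programme. The counts are per gene symbol, so fusion reads that fell on Kmt2a or Mllt3 cannot be told apart from reads of the unfused genes. The sources used here do not say whether the fusion construct holds human or mouse sequence.

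Start sites of 3 members are shown because Kmt2a and Dot1l fell with both hairpins and Ell was the member that rose. Each window has 300 bases, most of them before the start that RefSeq annotates and the last ones after it (GRCm38.p6), 5′ to 3′ on the gene's own strand. GENCODE M21, the source of the gene positions given with each member, starts Ell further upstream, at 70539457, so most of the Ell window lies inside the GENCODE gene. Capitals mark matches, on either strand, to the GC box GGGCGG, the ETS core CCGGAAG and the YY1 core AAGATGG. The NF-Y box CCAAT and the E-box CACGTG were also searched and had no match in these 3 windows. The windows lie at chr9:44881240-44881539 (minus strand) for Kmt2a, chr10:80754953-80755252 (plus strand) for Dot1l and chr8:70539425-70539724 (plus strand) for Ell.
Kmt2a: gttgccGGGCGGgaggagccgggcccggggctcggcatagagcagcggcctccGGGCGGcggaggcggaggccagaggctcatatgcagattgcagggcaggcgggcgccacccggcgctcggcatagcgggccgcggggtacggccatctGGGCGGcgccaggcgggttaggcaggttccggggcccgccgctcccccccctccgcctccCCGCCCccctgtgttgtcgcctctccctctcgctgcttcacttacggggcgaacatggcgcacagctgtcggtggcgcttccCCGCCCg
Dot1l: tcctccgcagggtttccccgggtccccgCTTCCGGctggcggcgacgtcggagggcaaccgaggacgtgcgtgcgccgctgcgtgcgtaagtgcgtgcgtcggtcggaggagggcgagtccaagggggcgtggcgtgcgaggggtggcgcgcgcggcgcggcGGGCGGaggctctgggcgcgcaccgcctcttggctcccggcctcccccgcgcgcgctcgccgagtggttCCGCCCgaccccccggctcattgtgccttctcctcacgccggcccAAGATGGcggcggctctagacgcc
Ell: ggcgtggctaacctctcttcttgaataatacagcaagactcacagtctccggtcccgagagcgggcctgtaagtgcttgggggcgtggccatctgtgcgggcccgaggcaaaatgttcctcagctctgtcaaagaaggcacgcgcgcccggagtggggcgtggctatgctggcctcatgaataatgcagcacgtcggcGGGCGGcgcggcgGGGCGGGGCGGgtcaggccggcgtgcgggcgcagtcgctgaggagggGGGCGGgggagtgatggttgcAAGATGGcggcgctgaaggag

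The Kmt2a window held 5 GC boxes and 36 CpG dinucleotides, the Dot1l window 2 GC boxes, 1 ETS core, 1 YY1 core and 49 CpGs, and the Ell window 4 GC boxes, of which a pair overlap by 1 base, 1 YY1 core and 29 CpGs. Across 32851 windows of the same length the median was 7 CpGs. The GC box was present in 35.66% of those windows, the ETS core in 8.858%, the NF-Y box in 37.41%, the E-box in 7.15% and the YY1 core in 6.338%. All 3 windows are thus GC-rich starts, and the GC box was found in each, at Kmt2a and Dot1l, which fell, and at Ell, which rose. The window of Aff4, which fell with shRNA-1, held 0 GC boxes. Each window of the uncalled Men1 held 1, and each window of the uncalled Aff1 held 3. A match is a description of the letters and not a site. Of the members, 9 had a window in the table, which did not include Psip1.

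Library totals were 9559638 to 13416141 counts with shRNA-1, 14953491 to 15915940 with shRNA-2 and 13683660 to 19483923 in controls. Levels are TMM-scaled CPM, that is counts scaled to a common library size. Syncrip itself had 15.9 to 20.1 CPM with shRNA-1, 46.3 to 63.2 CPM with shRNA-2 and 207 to 241 CPM in controls. Ribosomal RNA here means the counts of 3 symbols only, Gm26924 and the mitochondrial mt-Rnr1 and mt-Rnr2. It made up 12.0% to 19.3% of counts with shRNA-1, 6.10% to 15.8% with shRNA-2 and 4.77% to 8.29% in controls. Most of it was Gm26924, at a mean of 106476 CPM with shRNA-1, 82996 CPM with shRNA-2 and 45588 CPM in controls. Among the shRNA-2 libraries, replicate 2 had the highest ribosomal share. It also had the lowest level of 8 of the 10 members. The share of all genes that were lowest in that library was not worked out, so the count has no background. The myeloid leukaemia marker list (8 of 8 genes detected) summed to 1527 to 1626 CPM with shRNA-1, 1197 to 1366 CPM with shRNA-2 and 1238 to 1347 CPM in controls. Within it Mpo, a granule enzyme of myeloid precursors, averaged 526 CPM with shRNA-1, 8.64 CPM with shRNA-2 and 21.1 CPM in controls, while Ptprc averaged 129, 229 and 204 CPM and Hoxa9 272, 147 and 399 CPM in the same order. The neutrophil list (8 of 8) summed to 28642 to 36575, 34798 to 49564 and 11991 to 12486 CPM in the same order, and the macrophage list (8 of 9 in the tables) to 132 to 221, 524 to 932 and 124 to 160 CPM. Most of the neutrophil sum came from S100a8 (17771, 21556 and 5607 CPM) and S100a9 (10976, 13879 and 4828 CPM). Within that list Ltf averaged 35.4, 5.54 and 12.4 CPM, while the other genes averaged above the control with both hairpins. The T cell list stayed at or under 1.60 CPM in every library, with Cd3g, Cd8a and Trac at 0. The part of ribosomal RNA share and of the myeloid maturation markers in the members' changes was not tested beyond the alternatives given with each result. In bulk RNA, fewer cells of a type and less RNA per cell cannot be told apart.

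Across the members, most changes against the control were falls. With shRNA-1, 5 of 10 members fell (Kmt2a, Psip1, Mllt3, Dot1l and Aff4) and 0 rose, where 17.3% of all tested genes fell and 17.4% rose (edgeR's quasi-likelihood test, Benjamini-Hochberg adjusted p under 0.05). The count of rises with shRNA-1 was 0 also at an unadjusted p under 0.05, with DESeq2 and with limma-voom, and 1 (Aff1) with the length trend removed. With shRNA-2, 5 members fell (Kmt2a, Psip1, Mllt1, Mllt10 and Dot1l) and 1 rose (Ell), where 24.2% of all genes fell and 24.4% rose. The falls of Kmt2a, Psip1 and Dot1l were called with both hairpins, which was so for 9.57% of all genes. The median log2 fold change of the 10 members was -0.68 with shRNA-1 and -0.44 with shRNA-2, beside 0.02 and 0.00 over all tested genes. Scaling by total counts in place of TMM put the median of all genes at -0.23 for shRNA-1 and at -0.21 for shRNA-2, where 23.8% and 33.6% of all calls were higher, beside 50.1% and 50.2% with TMM. It left the direction of every member call against the control unchanged and added Mllt1 and Mllt10 to the falls with shRNA-1. The 2 comparisons share the control libraries. The shares of all genes in this paragraph are not matched for transcript length, and all members have transcripts over 2 kb. Falls were more frequent among longer transcripts, as given by length class below. All 6 knockdown libraries lay below all 3 controls for Kmt2a, Psip1, Mllt1, Dot1l and Aff4, which held for 14.4% of all genes, and 0 members had all 6 above, beside 12.9%. Against the controls, the libraries did not overlap for 6 members with shRNA-1, beside 52.6% of all genes, and for 7 with shRNA-2, beside 55.4%. The members that passed in opposite directions with the hairpins numbered 0, beside 2.66% of all genes.

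**Figure D1:**
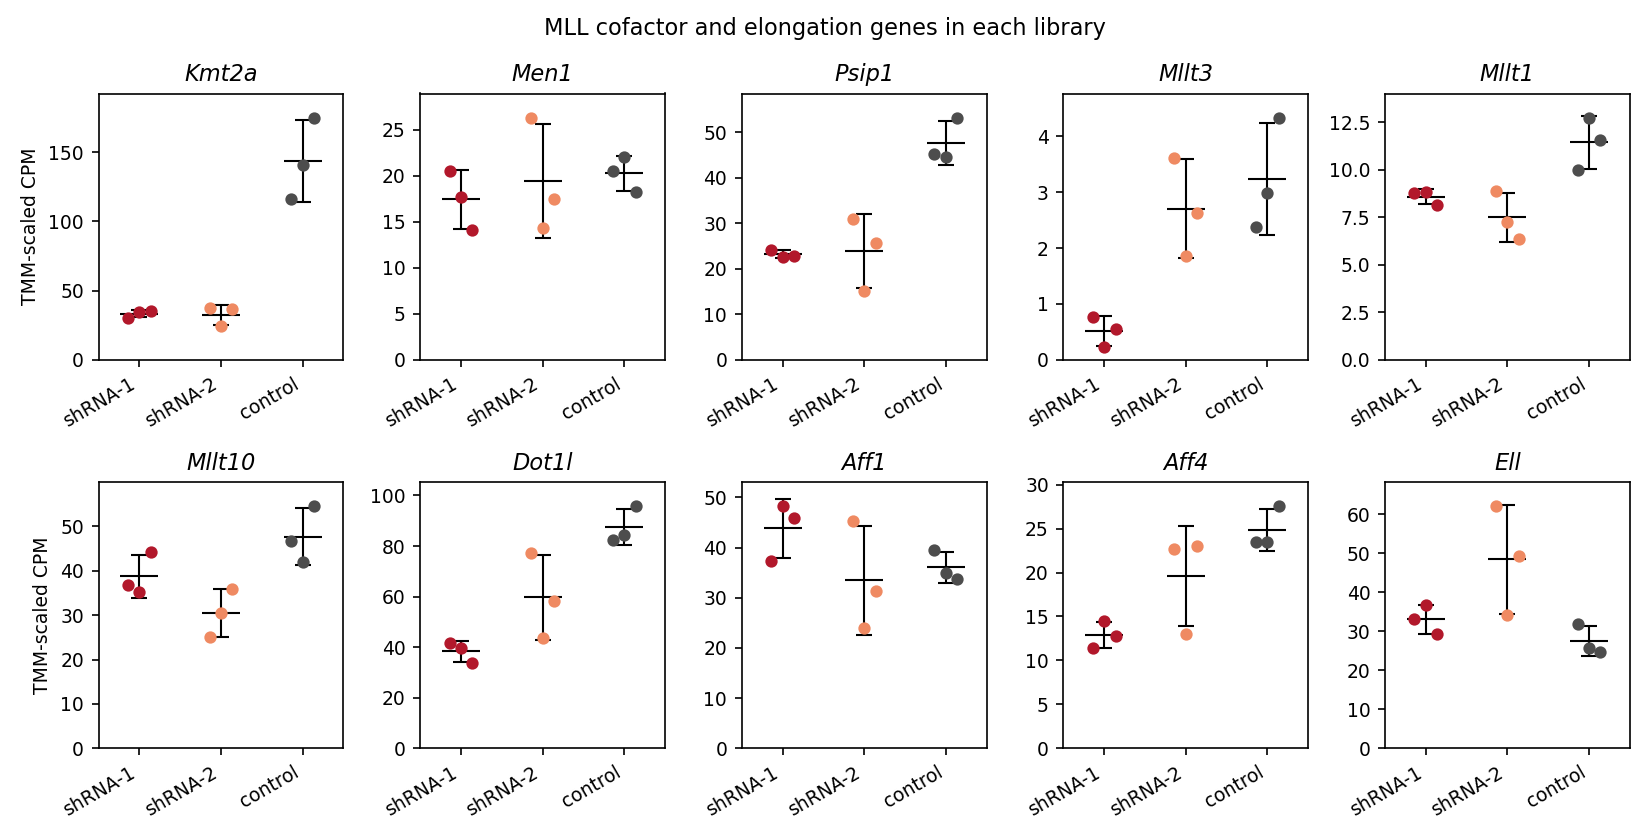
TMM-scaled CPM (y axis, from 0, own scale per gene) of the 10 members in each library, as 3 points per group with shRNA-1, shRNA-2 and control from left to right; the dash and bars give the mean ± SD. For Kmt2a the 6 knockdown libraries lie at 24.4 to 37.2 CPM and the 3 controls at 116 to 175 CPM, while the groups of Men1 overlap.

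Kmt2a, the histone methyltransferase that gives the fusion its first part, had the deepest fall that both hairpins shared. It lies on chromosome 9, 44803355 to 44881296 (GRCm38, minus strand). Its level was 30.4, 34.5 and 35.3 CPM in the shRNA-1 libraries, 37.2, 24.4 and 36.6 CPM in the shRNA-2 libraries and 116, 140 and 175 CPM in the controls. The highest knockdown library, at 37.2 CPM, lay far below the lowest control, at 116 CPM, and the hairpins' own ranges overlapped. The log2 fold change was -2.10 ± 0.19 with shRNA-1 (SE, edgeR adjusted p = 4.20e-05) and -2.13 ± 0.19 with shRNA-2 (adjusted p = 6.12e-06). Between the hairpins the log2 difference was 0.03, with a 95% interval of -0.38 to 0.44, and Syncrip was 3.20-fold lower with shRNA-1 than with shRNA-2. The fall passed in 22 of 22 alternatives with each hairpin, at -2.36 to -1.50 for shRNA-1 and at -2.34 to -1.77 for shRNA-2.

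Kmt2a also has the longest transcript of the members, 16470 bases. Genes with transcripts over 8 kb had a median log2 fold change of -0.42 with shRNA-1 and -0.32 with shRNA-2, and 44.2% and 39.2% of them fell. Once each library's trend with transcript length was removed, Kmt2a was at -1.50 with shRNA-1 and -1.77 with shRNA-2. In the fit with ribosomal RNA share as a covariate it was at -1.65 for shRNA-1 and -1.92 for shRNA-2.

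The genes whose pattern over the 9 libraries came closest to that of Kmt2a, among 8673 with a mean of at least 5 CPM, were Sltm, Ccar1, Nin, Kif20b and Golga4. Their root mean square differences from Kmt2a in centred log2 CPM ran from 0.250 for Sltm to 0.311 for Golga4. Sltm, which encodes a SAFB-like nuclear RNA-binding protein, averaged 46.2 ± 1.32 CPM with shRNA-1, 64.8 ± 25.0 CPM with shRNA-2 and 248 ± 57.4 CPM in controls (SD, n = 3 each). Ccar1, a coactivator of transcription and apoptosis regulator, averaged 57.4 ± 1.76, 59.7 ± 22.6 and 179 ± 38.8 CPM in the same order. Nin and Golga4 encode coiled-coil proteins of the centrosome and the Golgi, and Kif20b a mitotic kinesin. Among the members themselves the one closest to Kmt2a was Psip1, at 0.53, and the closest pair was Dot1l with Aff4, at 0.20.

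Of the tethers of KMT2A, Psip1 was called and Men1 was not. Psip1 encodes LEDGF, which reads methylated histone H3 through its PWWP domain and forms the chromatin anchor of the menin-MLL complex. Psip1 (chromosome 4, 83455680 to 83486459, minus strand) had 24.2, 22.6 and 22.7 CPM with shRNA-1, 30.9, 15.0 and 25.7 CPM with shRNA-2 and 45.3, 44.5 and 53.1 CPM in controls. The knockdown libraries lay below all controls, with the shRNA-2 libraries spread more widely than the shRNA-1 libraries. Psip1 fell by 1.04 ± 0.21 on the log2 scale with shRNA-1 (edgeR adjusted p = 0.00312) and by 0.99 ± 0.21 with shRNA-2 (adjusted p = 0.00201). Adjusting for ribosomal RNA share ended the call for shRNA-1 (-0.45, adjusted p = 0.207) and left that for shRNA-2 (-0.75). The gene span of Psip1, introns included, overlaps that of Snapc3 on the other strand by 11997 bases. The overlap of exons was not measured. Since the strand setting of the counting is not given, how reads in any shared exon were assigned is unknown. Snapc3 itself was at 0.21 with shRNA-1 (adjusted p = 0.336) and, with the other hairpin, fell by 0.59 (adjusted p = 0.0105).

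Men1 encodes menin, the scaffold that joins KMT2A to LEDGF and the target of menin inhibitors. Men1 (chromosome 19, 6334979 to 6340891, plus strand) had 20.5, 17.7 and 14.1 CPM with shRNA-1, 26.3, 14.4 and 17.5 CPM with shRNA-2 and 20.6, 22.0 and 18.3 CPM in controls. All groups overlapped. The log2 fold change was -0.22 with shRNA-1 (95% interval -0.68 to 0.24, edgeR adjusted p = 0.453) and -0.06 with shRNA-2 (-0.51 to 0.40, adjusted p = 0.832). The intervals thus reach neither the fall of Psip1 nor that of Kmt2a as estimated here. With shRNA-1, however, the Psip1 interval (-1.50 to -0.59) overlapped with that of Men1. A difference between the genes was not tested.

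**Figure D2:**
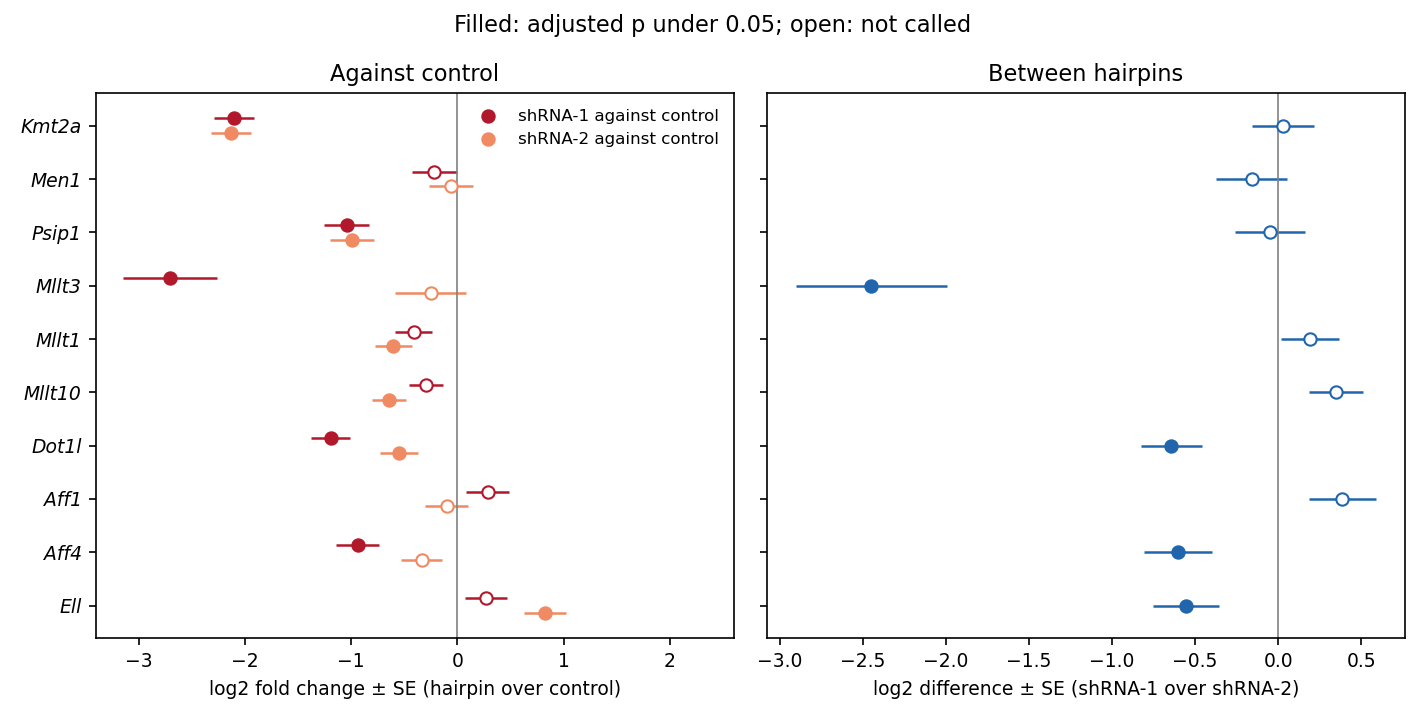
Log2 fold change ± SE of each member over control with shRNA-1 (dark red) and shRNA-2 (orange) at left, and of shRNA-1 over shRNA-2 at right (blue; the x axes differ); filled points passed an adjusted p of 0.05. Kmt2a lies near -2 with both hairpins, Mllt3 at -2.70 with shRNA-1 and -0.25 with shRNA-2, and Ell at 0.27 and 0.82.

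Of the YEATS readers AF9 and ENL, the gene of AF9 was called lower with shRNA-1 only and that of ENL with shRNA-2 only. A difference between the genes was not tested. Mllt3, the gene of AF9, rested on the fewest counts of all members and differed most between the hairpins. Mllt3 (chromosome 4, 87769925 to 88033364, minus strand) had 7, 3 and 6 counts with shRNA-1, 59, 24 and 39 counts with shRNA-2 and 47, 45 and 98 counts in controls. These are 0.769, 0.230 and 0.554 CPM with shRNA-1, 3.62, 1.86 and 2.63 CPM with shRNA-2 and 2.38, 2.98 and 4.33 CPM in controls. The shRNA-1 libraries lay below every other library, while shRNA-2 libraries and controls overlapped. Mllt3 fell by 2.70 ± 0.44 on the log2 scale with shRNA-1 (edgeR adjusted p = 0.00109), a fold that rests on very few counts. With shRNA-2 it was at -0.25 (95% interval -0.98 to 0.47, adjusted p = 0.553). The difference between the hairpins was -2.45 ± 0.45 (adjusted p = 0.00125), and it passed in 21 of 21 alternatives that gave a value.

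Mllt1 encodes ENL, the YEATS reader that acute myeloid leukaemia cells are known to depend on. Mllt1 (chromosome 17, 56892611 to 56935415, minus strand) had 8.79, 8.83 and 8.12 CPM with shRNA-1, 8.90, 7.27 and 6.34 CPM with shRNA-2 and 9.99, 12.7 and 11.6 CPM in controls. Every knockdown library lay below every control, and the hairpins overlapped with each other. With shRNA-2 it fell by 0.60 ± 0.17 (edgeR adjusted p = 0.0119), a call lost without shRNA-2 replicate 3 (-0.49, adjusted p = 0.0537) or without control replicate 2 (-0.52, adjusted p = 0.0575). With shRNA-1 it was at -0.41 ± 0.17 (adjusted p = 0.0837), which passed when total counts replaced TMM (-0.66, adjusted p = 0.0222) or when shRNA-1 and control were fitted alone (-0.43, adjusted p = 0.0436). The hairpins differed by 0.19 (95% interval -0.19 to 0.58).

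The DOT1L arm fell with both hairpins at the enzyme. Dot1l encodes the histone methyltransferase that marks transcribed bodies of MLL target genes. Dot1l (chromosome 10, 80755206 to 80795461, plus strand) had 41.6, 39.7 and 33.7 CPM with shRNA-1, 77.2, 43.7 and 58.4 CPM with shRNA-2 and 82.2, 84.5 and 95.8 CPM in controls. The order was shRNA-1 below shRNA-2 below control, with no overlap between any pair of groups. Dot1l fell by 1.19 ± 0.18 with shRNA-1 (edgeR adjusted p = 0.000852) and by 0.55 ± 0.18 with shRNA-2 (adjusted p = 0.0246), and the hairpins differed by -0.64 ± 0.18 (adjusted p = 0.0152). That difference was lost without shRNA-1 replicate 3 (-0.55, adjusted p = 0.0622) and after adjustment for ribosomal RNA share (-0.33, adjusted p = 0.0675). The shRNA-1 fall passed in 22 of 22 alternatives, at -1.44 to -0.64, with the smallest size after adjustment for ribosomal RNA share (adjusted p = 0.0326). The shRNA-2 call was lost without shRNA-2 replicate 2 (-0.37, adjusted p = 0.0677), shRNA-2 replicate 3 (-0.53, 0.0691), control replicate 1 (-0.57, 0.0505), control replicate 2 (-0.57, 0.0571) or control replicate 3 (-0.46, 0.104), as well as after adjustment for ribosomal RNA share (-0.32, 0.0536) and without the library of highest ribosomal share of each hairpin (-0.37, 0.0644).

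Mllt10 encodes AF10, which binds DOT1L and raises its methylation activity. Mllt10 (chromosome 2, 18055237 to 18212388, plus strand) had 36.8, 35.3 and 44.3 CPM with shRNA-1, 25.0, 30.5 and 36.0 CPM with shRNA-2 and 46.6, 41.9 and 54.5 CPM in controls. The shRNA-2 libraries lay below the controls, and the shRNA-1 libraries overlapped with both. Mllt10 fell by 0.65 ± 0.16 with shRNA-2 (edgeR adjusted p = 0.00564) and was at -0.30 ± 0.16 with shRNA-1 (adjusted p = 0.166), where total counts in place of TMM gave a call (-0.56, adjusted p = 0.0222). The hairpins differed by 0.35 (95% interval -0.01 to 0.70, adjusted p = 0.106). The gene span of Mllt10, introns included, overlaps that of Dnajc1 on the other strand by 16735 bases, and the overlap of exons was not measured. Dnajc1 fell by 0.82 with shRNA-1 (adjusted p = 0.00488) and was at -0.41 with shRNA-2 (adjusted p = 0.0747).

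Of the members of the super elongation complex, Aff4 was called lower with shRNA-1 only and Ell higher with shRNA-2 only. Aff1 was called with neither hairpin, and a difference between these genes was not tested. Aff4 encodes the scaffold on which P-TEFb, ELL factors and AF9 or ENL assemble. Aff4 (chromosome 11, 53350833 to 53421830, plus strand) had 11.4, 14.4 and 12.8 CPM with shRNA-1, 22.7, 13.0 and 23.1 CPM with shRNA-2 and 23.4, 23.5 and 27.5 CPM in controls. All knockdown libraries lay below the controls, and shRNA-2 replicate 2 lay among the shRNA-1 libraries. Aff4 fell by 0.94 ± 0.20 with shRNA-1 (edgeR adjusted p = 0.00466), a call lost with the ribosomal RNA covariate (-0.44, adjusted p = 0.246), and with the length trend taken out it was at -0.51 (adjusted p = 0.0248). With shRNA-2 it was at -0.34 ± 0.20 (adjusted p = 0.175). The hairpins differed by -0.60 ± 0.21 (adjusted p = 0.0342), which was lost in 9 of 22 alternatives, among them those without shRNA-1 replicate 1, 2 or 3 or shRNA-2 replicate 1 or 3 (adjusted p from 0.0503 to 0.130).

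Aff1 encodes AF4, the paralogous scaffold and itself a frequent MLL fusion partner. Aff1 (chromosome 5, 103692374 to 103855322, plus strand) had 37.2, 48.2 and 46.0 CPM with shRNA-1, 45.3, 23.9 and 31.3 CPM with shRNA-2 and 39.4, 34.9 and 33.8 CPM in controls. All groups overlapped. It was at 0.28 with shRNA-1 (95% interval -0.15 to 0.72, edgeR adjusted p = 0.294) and at -0.10 with shRNA-2 (-0.54 to 0.33, adjusted p = 0.696). With the length trend taken out the shRNA-1 value was 0.64 (adjusted p = 0.00800). The hairpins differed by 0.39 (adjusted p = 0.148), which passed without shRNA-2 replicate 1 (0.65, adjusted p = 0.00619), with the length trend removed (0.54, 0.0148) and after adjustment for ribosomal RNA share (0.65, 0.0242).

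Ell encodes an elongation factor that keeps RNA polymerase II from pausing and is also fused to MLL in leukaemia. Ell (chromosome 8, 70539457 to 70592858, plus strand) had 33.2, 36.7 and 29.3 CPM with shRNA-1, 62.1, 34.2 and 49.3 CPM with shRNA-2 and 31.9, 25.8 and 24.8 CPM in controls. The shRNA-2 libraries lay above the controls, and the shRNA-1 libraries overlapped with both. Ell rose by 0.82 ± 0.20 with shRNA-2 (edgeR adjusted p = 0.00454), in 22 of 22 alternatives, which gave 0.62 to 1.02. With shRNA-1 it was at 0.27 (95% interval -0.16 to 0.70, adjusted p = 0.317). The hairpins differed by -0.55 ± 0.20 (adjusted p = 0.0407), which was lost in 11 of 22 alternatives, among them those without shRNA-1 replicate 1, 2 or 3, shRNA-2 replicate 1 or 3 or control replicate 2 (adjusted p from 0.0538 to 0.135).

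Between the hairpins, 4 of 10 members differed, beside 41.0% of all genes. All of these (Mllt3, Dot1l, Aff4 and Ell) were lower with shRNA-1, as 21.3% of all genes were, and 0 were higher, beside 19.7% (0 also at an unadjusted p under 0.05, with DESeq2 and with limma-voom). Aff1 was called higher with shRNA-1 after adjustment for ribosomal RNA share, with the length trend removed and without shRNA-2 replicate 1. The libraries did not overlap for 2 of these, Mllt3 and Dot1l, beside 49.8% of all genes in either direction. The count was 2 without shRNA-1 replicate 1, without shRNA-1 replicate 2 or without shRNA-2 replicate 3, and 1 without shRNA-1 replicate 3, where only the Mllt3 difference passed. In these fits 32.6%, 31.6%, 31.4% and 33.8% of all genes were called, in that order. The difference of Mllt3 was the one of the 4 that passed in every alternative that gave a value.

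**Figure D3:**
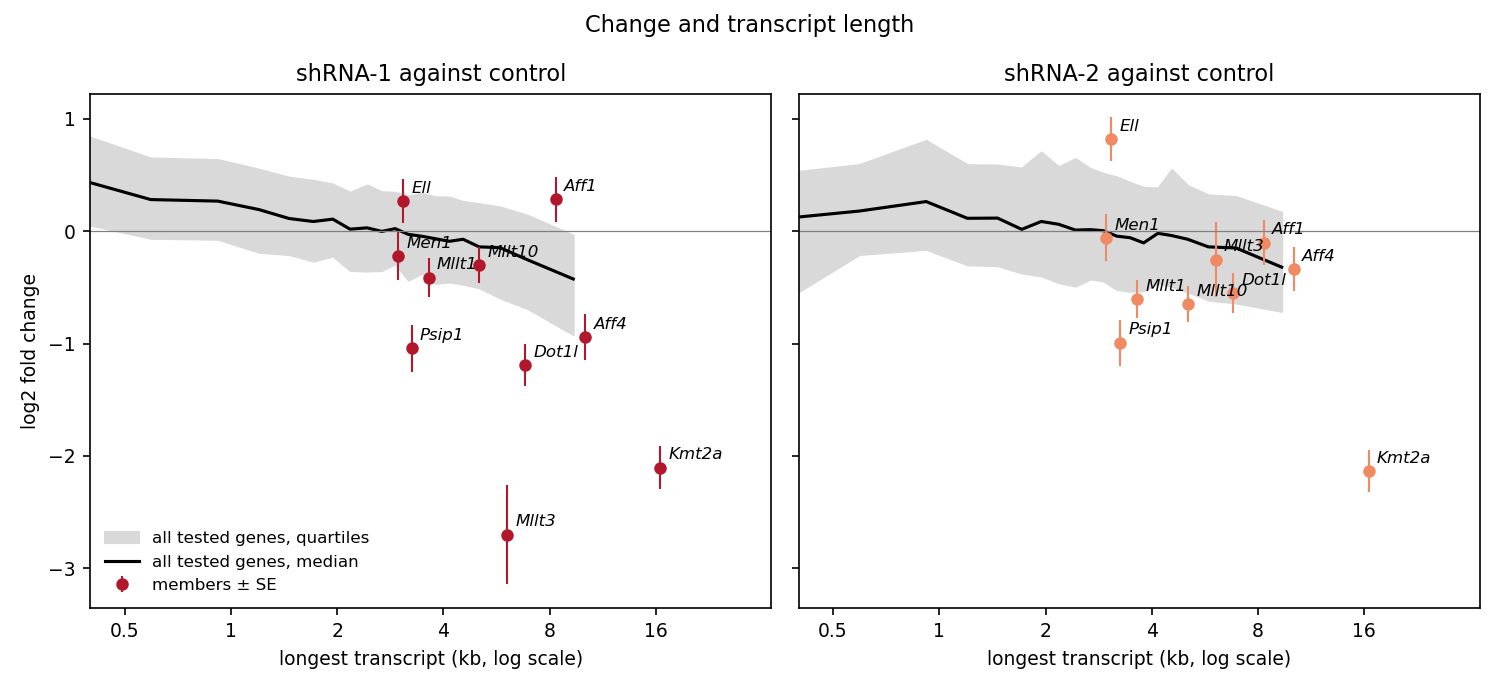
Log2 fold change over control (y axis) against the longest annotated transcript in kb (x axis, log scale) for shRNA-1 (left) and shRNA-2 (right); the line and band are the median and quartiles of all tested genes in bins by length, drawn at each bin's median length, and points are members ± SE. Long genes ran lower with both hairpins, and Kmt2a lies far below the band's end while Aff1, of 8323 bases, lies above the median line.

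Transcript length moved with the changes over all genes. Genes under 2 kb had a median log2 fold change of 0.23 with shRNA-1 and 0.13 with shRNA-2, those of 2 to 4 kb -0.00 and -0.02, and those of 4 to 8 kb -0.14 and -0.09. Kmt2a, Aff4 and Aff1 have transcripts over 8 kb, Dot1l, Mllt3 and Mllt10 of 4 to 8 kb, and Mllt1, Psip1, Ell and Men1 of 2 to 4 kb. In the fit with the length trend taken out, the falls of Kmt2a, Psip1, Mllt3, Dot1l and Aff4 with shRNA-1 and those of Kmt2a, Psip1, Mllt1, Mllt10 and Dot1l with shRNA-2 still passed. Adjusted for ribosomal RNA share, 3 members fell with shRNA-1 (Kmt2a, Mllt3 and Dot1l), and Kmt2a alone fell with both hairpins. That fit called 10.7% of all genes with shRNA-1 and 45.7% with shRNA-2, in either direction. All 3 shRNA-1 libraries had a larger ribosomal share than any control, so the covariate and shRNA-1 can be told apart only in part.

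**Figure D4:**
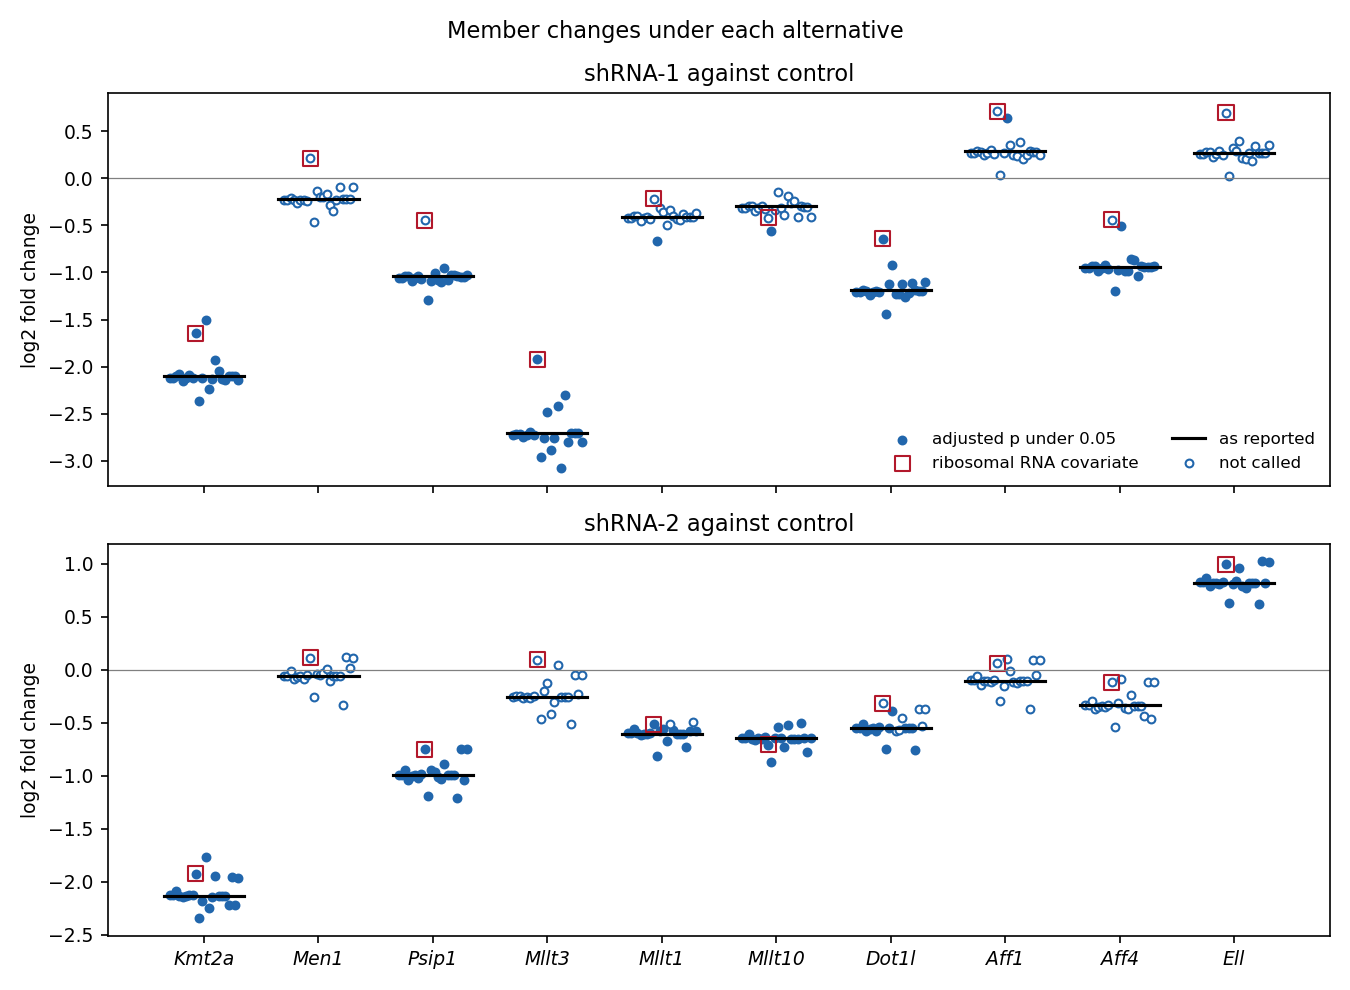
Log2 fold change over control (y axis) of each member under the alternatives (points; filled with an adjusted p under 0.05, open otherwise), with the reported value as a line and the ribosomal RNA covariate boxed; shRNA-1 is above and shRNA-2 below. Kmt2a stays at or below -1.50 in every fit, and the boxed values of Psip1 and Aff4 with shRNA-1 are open.

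Other genes of these complexes, their partners and genes that MLL fusions keep on were counted from 5 lists. The lists were drawn up with earlier results of these data known. Of the 87 list genes tested, 28 fell and 3 rose with both hairpins, where 9.57% and 9.24% of all genes did. The list of genes that MLL fusions keep on, which are not complex subunits, gave 19 of the 87 and 8 of the 28. With shRNA-1, 40 fell and 7 rose, beside 17.3% and 17.4% of all genes. With shRNA-2, 39 fell and 7 rose, beside 24.2% and 24.4% of all genes. The same shares, which are not matched for transcript length, are the background for the counts of each list that follows.

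Among MLL and COMPASS subunits, which assemble on the KMT2 methyltransferases, 7 of 20 fell and 1 rose with shRNA-1, 7 fell and 1 rose with shRNA-2, and the median log2 fold changes were -0.10 and -0.36. Dpy30, a small subunit of the shared core, rose by 0.87 ± 0.14 with shRNA-1 (edgeR adjusted p = 0.00106) and by 0.69 ± 0.14 with shRNA-2 (adjusted p = 0.00178). Setd1a, a methyltransferase of the sister complex, fell by 0.80 with shRNA-1 and 0.89 with shRNA-2, and the shRNA-1 call was lost without shRNA-1 replicate 3 (adjusted p = 0.0680) or control replicate 3 (0.0777). Paxip1, the PTIP subunit of the KMT2C and KMT2D complexes, fell by 0.55 with shRNA-1 and 1.70 with shRNA-2, and its shRNA-1 call was lost without any shRNA-1 library in turn, control replicate 1 or control replicate 3 (adjusted p from 0.0521 to 0.104) and with the length trend removed (-0.34, adjusted p = 0.0848).

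Among P-TEFb, super elongation complex and pause factors, 11 of 24 fell and 2 rose with each hairpin, and 8 fell with both. The median log2 fold changes were -0.32 with shRNA-1 and -0.28 with shRNA-2. Larp7, which holds the 7SK RNA that keeps P-TEFb inactive, averaged 27.6 ± 1.10 CPM with shRNA-1, 34.7 ± 10.4 CPM with shRNA-2 and 70.1 ± 6.77 CPM in controls (SD, n = 3 each). Ccnt1, the cyclin of P-TEFb, averaged 54.5 ± 2.78, 60.9 ± 3.69 and 104 ± 4.73 CPM in the same order. Larp7 fell by 1.34 and 1.01, and Ccnt1 by 0.93 and 0.77, with shRNA-1 and shRNA-2 in that order, in every alternative. A gene that restrains P-TEFb and a gene that activates it were both lower.

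In the list of the PAF1 complex, which travels with elongating polymerase and binds MLL, 5 of 8 genes fell with shRNA-1 and 4 fell and 1 rose with shRNA-2. The list also holds Rnf20 and Rnf40, which belong to a separate ligase. Both were among the 5 falls with shRNA-1, and Rnf40 was among the 4 with shRNA-2. The medians of the list were -0.79 with shRNA-1 and -0.43 with shRNA-2. Ctr9, its scaffold, fell by 1.30 ± 0.22 with shRNA-1 and 0.99 ± 0.22 with shRNA-2. Rnf40, a subunit of the ubiquitin ligase for histone H2B that works with the complex, fell by 0.81 ± 0.20 and 0.78 ± 0.20.

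Among paralogs and partners of AF9, AF10, DOT1L and LEDGF, 7 of 16 fell and 2 rose with shRNA-1, and 7 fell and 3 rose with shRNA-2. The medians were -0.40 with shRNA-1 and -0.12 with shRNA-2. Yeats2, another YEATS reader, fell by 1.00 with shRNA-1 and fell by 1.53 with shRNA-2, and Hdgfrp2, a PWWP relative of LEDGF, fell by 0.84 and by 0.87 in the same order. Mllt11, a small protein first found as an MLL partner, rose by 0.81 and 0.94. Cbx8, a Polycomb protein that binds AF9, rose by 0.74 and 0.99, and the shRNA-1 call was lost with total counts (0.50, adjusted p = 0.166) and without shRNA-1 replicate 1 or 2 or control replicate 2 or 3 (adjusted p from 0.0748 to 0.137).

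Among genes that MLL fusions keep on, 10 of 19 fell and 2 rose with shRNA-1, and 10 fell with shRNA-2. The medians were -0.39 with shRNA-1 and -0.37 with shRNA-2. Mef2c, a transcription factor of MLL leukaemia, averaged 81.6 ± 1.14 CPM with shRNA-1, 83.4 ± 2.55 CPM with shRNA-2 and 197 ± 19.3 CPM in controls (SD, n = 3 each), and fell by 1.27 with shRNA-1 and fell by 1.24 with shRNA-2. Jmjd1c, a JmjC-domain protein that MLL-rearranged cells are known to depend on, fell by 1.55 and fell by 1.57 in the same order. Adjustment for ribosomal RNA share ended the calls with shRNA-1 of Dpy30, Setd1a, Paxip1, Ctr9, Rnf40, Mllt11, Yeats2 and Hdgfrp2 (adjusted p from 0.0511 to 0.845), while Larp7, Ccnt1, Cbx8, Mef2c and Jmjd1c still passed.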

How the data were processed

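RNA of 9 cultures was primed with oligo-dT for the first cDNA strand and with random decamers for the other, per the labels' protocols. For each library the authors deposited a table of unnormalized counts by symbol. STAR 2.3.0e, HTSeq 0.6.0 and mm10 are named in the submitters' processing notes. How strand and multiply mapped reads were handled, and with which annotation, was not given in the sources used here, so overlapping genes and close paralogs cannot be fully told apart.

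Each table held 39179 entries, summed to 38926 symbols, of which 12663 passed filterByExpr. All 9 libraries entered 1 fit with TMM scaling and group as the only term (edgeR 4.0.16, R 4.3.3). The test was edgeR's quasi-likelihood test, with p-values adjusted by Benjamini-Hochberg over all tested genes at 0.05. Standard errors were derived from the F statistic. The pipeline was tested on simulated data. Pairs of replicates of 1 group differed by 17.5 to 126 chi-square per degree of freedom, so no library was a repeat of another. The members and lists were chosen with earlier results of these data known. All 10 members are named, with Syncrip as the check. From each list come up to 2 rises and 2 falls called with both hairpins, by the larger of the smaller absolute change, and for Kmt2a the 5 genes of nearest pattern. Ell2, Mllt6 and Hexim2 were singled out after their values were seen. Intervals cover the spread between libraries.

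Alternatives were scaling by DESeq2 size factors or by total counts, no low-count filter or one of 5 CPM, DESeq2 1.42.0, limma-voom (limma 3.58.1), the replicate block, fits of the groups compared alone, ribosomal RNA genes left out or their share as a covariate, length and GC trends taken out, and each library left out in turn. Chosen after seeing the data, 1 further fit dropped replicate 3 of shRNA-1 and replicate 2 of shRNA-2, the libraries of highest ribosomal share of each hairpin. Positions and transcript lengths came from GENCODE M21 on GRCm38, matched for 94.7% of tested genes, and start-site sequences from RefSeq on GRCm38.p6.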

Additional observations from a re-analysis of the deposited data

Results flagged for a closer look

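The hairpins differed from each other at 4 of 10 members by edgeR's test of the difference itself, a share near the 41.0% of all genes. The log2 difference of shRNA-1 over shRNA-2 was -2.45 for Mllt3 (adjusted p = 0.00125), -0.64 for Dot1l (adjusted p = 0.0152), -0.60 for Aff4 (adjusted p = 0.0342) and -0.55 for Ell (adjusted p = 0.0407). Lower values with shRNA-1 than with shRNA-2 held in all 9 pairs of libraries for Mllt3 and Dot1l, while the libraries overlapped for Aff4 and Ell. The differences of Aff4 and Ell were lost in 9 and 11 of 22 alternatives and that of Dot1l in 2. Without shRNA-1 replicate 3 the count was 1, beside 33.8% of all genes in that fit.

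Of the 87 other list genes tested, 3 passed against the control with each hairpin in opposite directions, as 2.66% of all genes did. These genes were singled out because those tests and the test between the hairpins passed. Their adjusted p-values below thus restate the choice and add no support to it. Ell2, a paralog of Ell in the super elongation complex, had 5.93, 5.76 and 5.72 CPM with shRNA-1, 31.0, 30.2 and 36.0 CPM with shRNA-2 and 10.7, 12.8 and 14.2 CPM in controls. No groups of Ell2 overlapped. It fell by 1.11 ± 0.15 with shRNA-1 (edgeR adjusted p = 0.000473) and rose by 1.37 ± 0.14 with shRNA-2 (adjusted p = 1.60e-05), and the hairpins differed by -2.48 (adjusted p = 1.24e-06). Mllt6, the AF17 paralog of AF10, had 0.439, 1.61 and 1.29 CPM with shRNA-1, 6.99, 5.88 and 4.99 CPM with shRNA-2 and 2.48, 2.39 and 3.36 CPM in controls. The Mllt6 values with shRNA-1 rest on only 4, 21 and 14 counts. Its hairpins differed by -2.36 (adjusted p = 0.000259), and its fall with shRNA-1 (-1.25, adjusted p = 0.0181) was lost without control replicate 3 (-1.07, adjusted p = 0.0731), with the length trend removed and after adjustment for ribosomal RNA share. Hexim2, an inhibitor of P-TEFb, had 0.329, 0.691 and 0.461 CPM with shRNA-1, 2.95, 2.55 and 2.50 CPM with shRNA-2 and 1.37, 1.19 and 1.68 CPM in controls. The Hexim2 values with shRNA-1 rest on 3, 9 and 5 counts, which limits the precision of its folds. Its hairpins differed by -2.37 (adjusted p = 0.000217), and its rise with shRNA-2 (0.90, adjusted p = 0.0158) was lost without control replicate 2 (0.81, adjusted p = 0.0640) and with total counts, as was its fall with shRNA-1 (-1.47, adjusted p = 0.00762) with the ribosomal RNA covariate. Macrophage marker sums were 132 to 221 CPM with shRNA-1, 524 to 932 CPM with shRNA-2 and 124 to 160 CPM in controls. They too were higher with shRNA-2, while with shRNA-1 they overlapped with the controls and were not below them. The part of these markers was not tested.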

How the results depend on the processing

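Of the counts of members called, total counts without TMM gave 2 between the hairpins and 5 with both hairpins, limma-voom and fits of the groups compared alone gave 2 between the hairpins, and the ribosomal RNA covariate gave 3 with shRNA-1, 2 between the hairpins (Mllt3 lower and Aff1 higher, with Dot1l, Aff4 and Ell lost) and 1 with both. Under that covariate 10.7% of all genes were called with shRNA-1 and 39.3% between the hairpins. Total counts called 37.5% of all genes between the hairpins, limma-voom 39.8% and fits of the groups compared alone 36.9%. Leaving out 1 library in turn gave 5 to 5 with shRNA-1, 4 to 6 with shRNA-2, 1 to 4 between the hairpins and 2 to 3 with both. Those fits called 22.6% to 40.2%, 39.7% to 49.9% and 31.4% to 42% of all genes in the first 3 comparisons. Over all genes, calls with shRNA-1 were 4389 as reported and 1358 with the ribosomal RNA covariate.

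Signs turned only among uncalled values. With shRNA-1, Men1 was at 0.21 with the ribosomal RNA covariate. With shRNA-2, the same covariate gave 0.11 for Men1, 0.092 for Mllt3 and 0.061 for Aff1, the length trend 0.10 for Aff1, and the added fit 0.11 for Men1 and 0.089 for Aff1. Leaving out 1 library gave -0.33 to 0.12 for Men1, -0.51 to 0.047 for Mllt3 and -0.37 to 0.091 for Aff1. Between the hairpins Kmt2a was at -0.019 (total counts), -0.0025 (no filter), -0.0037 (filter of 5 CPM), -0.18 (added fit) and -0.14 to 0.12 (1 library left out). Men1 was at 0.10 (ribosomal RNA covariate) and -0.34 to 0.11 (1 library left out), and Psip1 at 0.0029 (limma-voom), 0.30 (ribosomal RNA covariate) and -0.30 to 0.17 (1 library left out). The causes were not tested. Mllt3 has no value under the filter of 5 CPM, and its 3 to 7 counts with shRNA-1 limit the precision of its fold.

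Same-numbered libraries had correlations of deviations from -0.14 to 0.38 over 9 pairs, beside -0.46 to 0.31 over 18 other pairs, and not every library correlated best with its own number, so the numbers were not taken as pairing. With the replicate block, 5 members passed with shRNA-1, 6 with shRNA-2, 5 between the hairpins and 3 with both, beside 39.2%, 52.5% and 44.5% of all genes in the first 3 comparisons, and Mllt10 between the hairpins (0.35) was the added call.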
